A study of Mus musculus with 8 samples.

Results

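Immediate early genes were followed in RNA sequencing of mouse myocardium. The set held 10 genes, Fos, Fosb, Jun, Junb, Egr1, Atf3, Nr4a1, Ier2, Klf4 and Klf6, matched by symbol among the 33249 genes of the count table, and all 10 had a mean level of at least 0.5 FPKM, the fragments per kilobase of gene scaled to library size. These genes were selected on expression values of the same libraries, and which comparison led to their choice is not recorded, so their differences, and the numbers of them past a threshold, are given as a description that supports nothing further. The study had 8 libraries, 2 for each pairing of a genotype (fl/fl or CKO) with an operation (Sham or MI, for myocardial infarction). All mice carried floxed Piezo1, the gene of a mechanically gated cation channel. CKO mice also carried Cre fused to oestrogen receptor sequence under the Myh6 promoter, which is active in cardiomyocytes, and their littermates without this transgene were the fl/fl mice. Tamoxifen, given at 4 weeks of age to induce the deletion in CKO mice, switches this Cre on. Surgery was at 8 weeks of age. In MI hearts the left anterior descending artery was permanently tied off, and tissue was taken at day 42. Sham hearts had the same operation without ligation, and the labels give no day for them. The labels do not say whether the 2 libraries of a group came from separate animals or from pooled ones, so the spread between them may be technical.

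Immediate early genes are transcribed within minutes of a stimulus without new protein synthesis, because the factors that switch them on, such as SRF with its ELK partners and CREB, are already present and are activated by kinases. Many encode transcription factors of their own: Fos and Jun proteins pair as the AP-1 complex, and EGR, NR4A and KLF proteins bind DNA through zinc fingers. Their transcripts decay fast, so their level follows recent stimulation, and in the heart they are known to respond to stretch, ischaemia, adrenergic drive and the handling of tissue.

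The DNA just before the transcription start is shown for the 5 members with the highest fold changes among those in the RefSeq promoter table (GRCm38.p6), which held 8 of the 10 genes. Each sequence is the 140 bases that end at the base before the RefSeq start, written 5′ to 3′ on the strand of the gene. Capitals mark TGACG, the core of the cAMP response element (CRE) bound by CREB and ATF proteins, or its reverse complement.
Fos: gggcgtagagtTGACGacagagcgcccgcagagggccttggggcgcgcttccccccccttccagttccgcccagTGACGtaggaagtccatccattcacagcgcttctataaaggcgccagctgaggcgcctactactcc
Fosb: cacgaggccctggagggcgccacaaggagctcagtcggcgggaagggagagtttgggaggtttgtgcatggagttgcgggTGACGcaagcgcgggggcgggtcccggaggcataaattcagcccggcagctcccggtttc
Nr4a1: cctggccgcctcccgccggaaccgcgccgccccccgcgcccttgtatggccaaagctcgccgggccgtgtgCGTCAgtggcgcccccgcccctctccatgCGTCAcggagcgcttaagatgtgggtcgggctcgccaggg
Junb: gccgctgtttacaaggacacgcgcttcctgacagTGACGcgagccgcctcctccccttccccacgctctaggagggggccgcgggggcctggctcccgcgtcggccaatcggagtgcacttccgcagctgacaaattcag
Atf3: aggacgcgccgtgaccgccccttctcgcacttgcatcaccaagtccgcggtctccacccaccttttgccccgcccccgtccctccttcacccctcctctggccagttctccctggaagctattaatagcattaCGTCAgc
The windows lie at chr12:85473750-85473889 on the plus strand for Fos, chr7:19310046-19310185 on the minus strand for Fosb, chr15:101266706-101266845 on the plus strand for Nr4a1, chr8:84978749-84978888 on the minus strand for Junb and chr1:191183334-191183473 on the minus strand for Atf3. Over the 250 bases before the start and on both strands, TGACG was found in 6 of the 8 members in the table, which were Fos, Fosb, Junb, Atf3, Nr4a1 and Klf4, and in 17.8% of all 32851 promoters. Nr4a1 had 4 copies, beginning 233, 213, 69 and 40 bases before its start. Fos had 2 copies, at 129 and 66 bases, and was the member with TATAAA, 33 bases before its start, which 12.4% of all promoters hold. GCGNGGGCG, the motif of EGR proteins, was found in Fosb, Nr4a1 and Klf4 and in 4.7% of all promoters, and it overlaps no TGACG copy in them. The full CRE TGACGTCA (1.55% of promoters), the AP-1 motif TGANTCA (6.75%) and the CArG box of SRF (1.47%) had no match in these windows. Egr1 and Ier2 were not in the promoter table, and bases further than 250 before a start were not searched, so sites there could not be found. A match is a string of letters and not a measured binding site.

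The targeted gene was checked first. Piezo1 was at 72.2 and 82.0 CPM (counts scaled to a fixed library total after edgeR's TMM normalization) in fl/fl-Sham, 76.7 and 88.3 in CKO-Sham, 53.5 and 64.8 in fl/fl-MI and 56.3 and 64.6 in CKO-MI, so neither CKO group was below its control. Counts of the whole gene in myocardium cover every cell type, so a loss in cardiomyocytes alone may not show. Esr1, the mouse oestrogen receptor gene to which reads of the Cre fusion can map, was at 707 and 402 CPM in CKO-MI, at 331 in fl/fl-MI 2, against its label, and between 5.52 and 8.36 in the other 5 libraries, including both labelled CKO-Sham. The library labelled fl/fl-MI 2 also had atrial genes. Myl7, a myosin light chain of atrial muscle, was at 2129 FPKM there and at 4.83 to 28.7 in the other 7, and Bmp10 at 927.5 against 2.32 to 3.22. Group names below therefore stand for how the libraries are labelled, and the fold changes of the 10 genes and named genes that move by over 1.5 times, turn or lose a call without fl/fl-MI 2 are also given without it. Cardiomyocyte markers (8 genes) summed to 8095 to 14770 FPKM, so all libraries held heart muscle. Deposited counts per library ranged from 73821747 to 88117573, and the counts behind a single member from 175 for Fosb in CKO-MI 2 to 48116 for Nr4a1 in fl/fl-MI 2. In bulk tissue, fewer cells of a type and less RNA per cell cannot be told apart.

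The early genes were on the whole low in fl/fl-Sham and a little higher in CKO-Sham. Among MI hearts they were highest in fl/fl-MI 2, lower in fl/fl-MI 1 and CKO-MI 1, and near the sham level in CKO-MI 2. The median over the 10 genes of the log2 difference from the fl/fl-Sham mean was 0.04 and -0.04 in the fl/fl-Sham libraries, 0.60 and 0.79 in CKO-Sham, 1.98 and 3.44 in fl/fl-MI, and 1.70 and 0.02 in CKO-MI. The replicates of each MI group were thus further apart than the 2 sham groups were from each other.

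**Figure D1:**
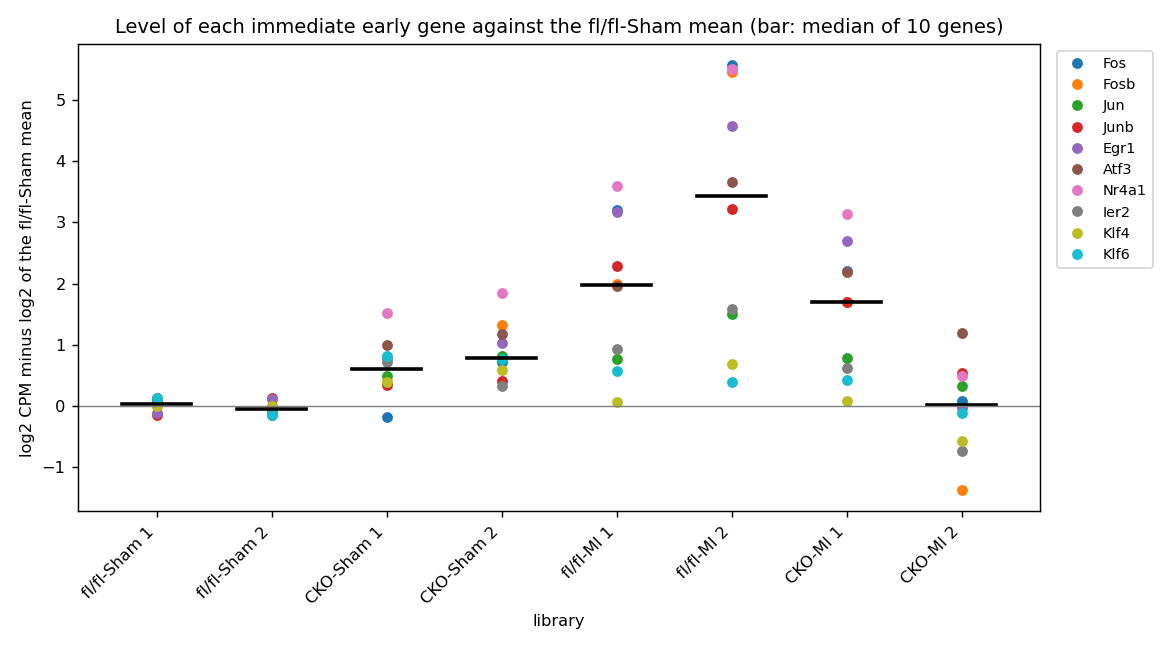
Each point is 1 of the 10 immediate early genes in 1 library, as log2 CPM minus the log2 of the gene's fl/fl-Sham mean (y axis), with libraries on the x axis and a bar at the median of the 10. The bars stand at 1.98 and 3.44 in fl/fl-MI and at 1.70 and 0.02 in CKO-MI, while the 4 sham libraries lie between -0.04 and 0.79.

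Fos, the partner of JUN proteins in AP-1, was at 9.43 and 8.40 CPM in fl/fl-Sham, 7.85 and 14.7 in CKO-Sham, 82.2 and 423 in fl/fl-MI, and 41.1 and 9.42 in CKO-MI. Both fl/fl-MI libraries were above all the others, and CKO-MI 2 was among the sham libraries. Fosb, a second FOS protein, was at 4.67 in each fl/fl-Sham library, 6.13 and 11.7 in CKO-Sham, 18.6 and 205 in fl/fl-MI, and 15.1 and 1.80 in CKO-MI. Its level in CKO-MI 2 was the lowest of the 8, and in fl/fl-MI 2 it was 11 times that in fl/fl-MI 1, the widest gap between fl/fl-MI replicates in the set.

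Junb, a JUN protein that can restrain JUN at some promoters, was at 27.4 and 33.2 CPM in fl/fl-Sham, 38.3 and 40.1 in CKO-Sham, 148 and 281 in fl/fl-MI, and 98.4 and 44.2 in CKO-MI. All 4 MI libraries were above all 4 sham libraries for this gene, which held for 2 of the 10 genes (Junb and Atf3) and for 20.9% of all genes tested. Jun itself moved over a narrower range, with 52.5 and 49.2 CPM in fl/fl-Sham, 71.1 and 89.7 in CKO-Sham, 86.7 and 144 in fl/fl-MI, and 87.5 and 63.9 in CKO-MI. Its CKO-Sham and CKO-MI libraries overlapped. Atf3, a stress-induced member of the ATF and CREB family, was at 5.08 and 4.15 CPM in fl/fl-Sham, 9.20 and 10.4 in CKO-Sham, 18.03 and 58.3 in fl/fl-MI, and 20.98 and 10.6 in CKO-MI. Here CKO-MI 1 was above fl/fl-MI 1, so the MI groups overlapped.

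Egr1, a zinc finger factor induced through SRF, was at 19.0 and 22.3 CPM in fl/fl-Sham, 35.5 and 41.9 in CKO-Sham, 186 and 494 in fl/fl-MI, and 134 and 20.2 in CKO-MI. Its CKO-MI 2 level lay between those of the fl/fl-Sham libraries and below both CKO-Sham libraries. Nr4a1, an orphan nuclear receptor also called NUR77, was at 13.1 and 12.5 CPM in fl/fl-Sham, 36.7 and 46.0 in CKO-Sham, 155 and 581 in fl/fl-MI, and 113 and 18.02 in CKO-MI. It showed the largest difference of the set between the sham groups, 3.22-fold, and also had its CKO-MI 2 library below CKO-Sham.

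Ier2, a nuclear protein named for its immediate early response, was at 24.7 and 21.9 CPM in fl/fl-Sham, 38.5 and 29.3 in CKO-Sham, 44.3 and 70.1 in fl/fl-MI, and 35.9 and 14.1 in CKO-MI. As for Fosb, its CKO-MI 2 level was the lowest of the 8. Klf4, a zinc finger factor prominent in endothelium and smooth muscle, was at 83.7 and 83.4 CPM in fl/fl-Sham, 110.1 and 126 in CKO-Sham, 87.4 and 134 in fl/fl-MI, and 88.9 and 56.0 in CKO-MI. Klf6, a broadly expressed relative, was at 92.4 and 76.7, 148.5 and 143, 126 and 110.5, and 113 and 77.7 CPM in the same order of groups. Klf6 was the 1 gene of the set that was not highest in fl/fl-MI 2, since both its CKO-Sham libraries were above all the others.

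**Figure D2:**
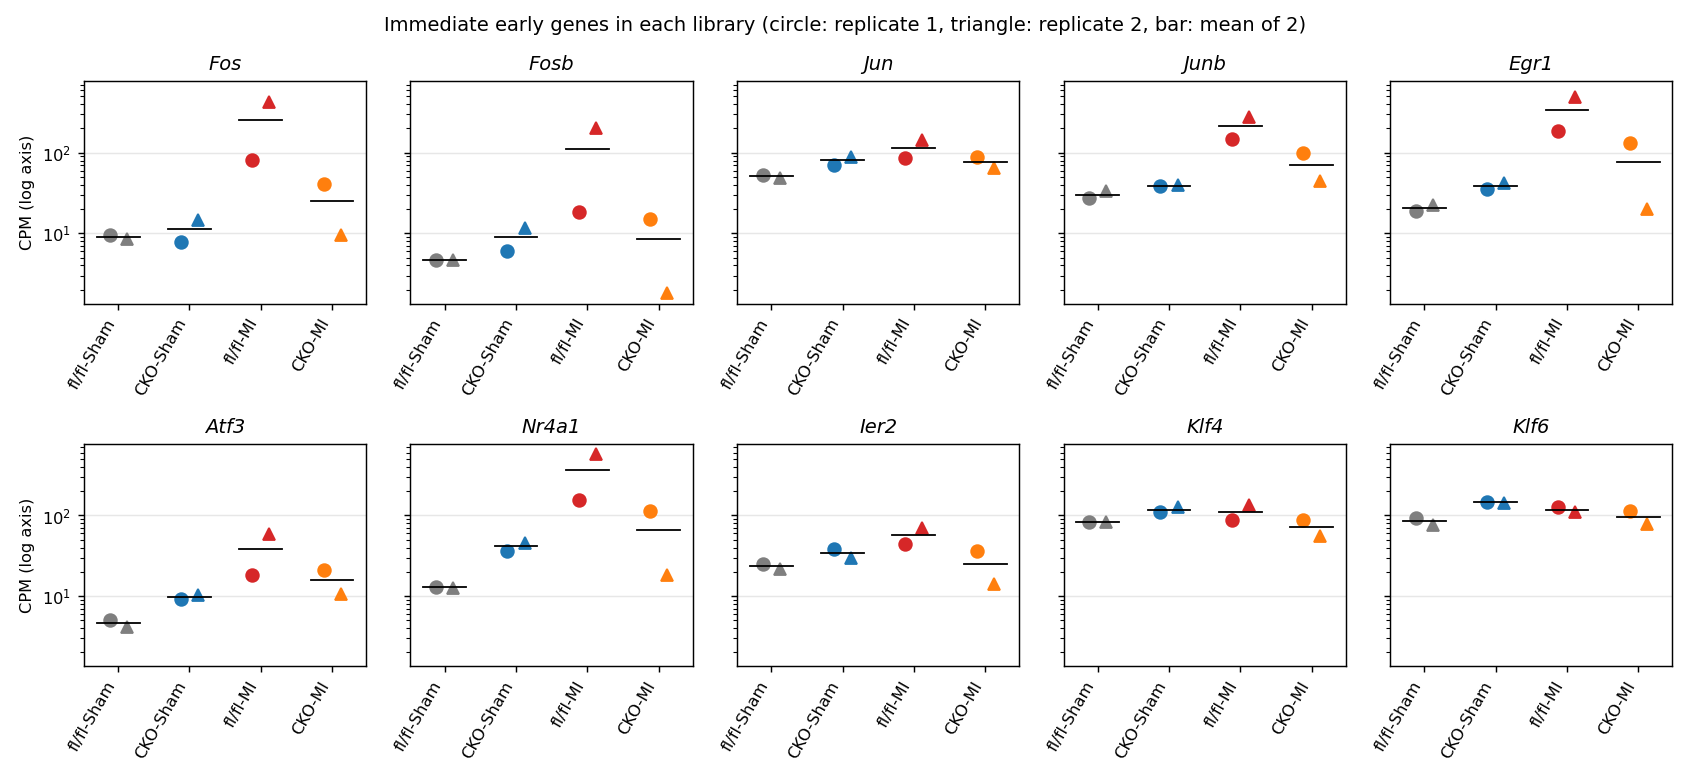
Each panel is 1 gene, with the level in CPM on a log y axis and the 4 groups on the x axis; circles are replicate 1, triangles replicate 2 and bars the mean of the 2. Fosb spans 1.80 to 205 CPM and Klf6 76.7 to 148.5, and in every panel the lowest of the 4 MI libraries is CKO-MI 2.

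Per gene length, on the FPKM scale of the authors, the rank of the genes changed between sham and MI hearts. In fl/fl-Sham the highest level was that of Klf4, at 21.1 and 22.5 FPKM, followed by Klf6 at 16.2 and 14.4, which overlapped with Junb (11.7 and 15.1). Junb also overlapped with Jun (12.7 in both) and with Ier2 (12.5 and 11.8), and Jun was just above Ier2. Egr1 came next (3.26 and 4.10), just above Fos (3.08 and 2.94) and Nr4a1 (2.88 and 2.94), which overlapped, and Atf3 (1.82 and 1.58) and Fosb (0.575 and 0.613) were last. In fl/fl-MI 2, Fos was first at 195 FPKM, then Nr4a1 at 180, Junb at 169 and Egr1 at 120, and Klf6 was last at 27.3. In fl/fl-MI 1 the order was headed by Junb at 105, and Nr4a1, Egr1 and Fos followed at 56.4, 53.1 and 44.7. The summed FPKM of the 10 genes was 85.8 and 88.8 in fl/fl-Sham, 133 and 140 in CKO-Sham, 419 and 903 in fl/fl-MI, and 274 and 137 in CKO-MI. On the CPM scale, which is TMM-normalized, the sum was 332 and 316, 502 and 553, 952 and 2500, and 749 and 316 in the same order. There CKO-MI 2 was at the fl/fl-Sham level and below both CKO-Sham libraries.

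The first comparison asked how the early genes differed between MI and sham hearts of control mice. All 10 were higher in both libraries labelled fl/fl-MI than in both fl/fl-Sham libraries, a separation also seen for 32.5% of the 14028 genes tested. The median log2 fold change of the 10 was 2.94, beside 0.05 for all genes tested, and 1.98 without fl/fl-MI 2. Nr4a1 and Fos differed most, by 4.84 ± 0.99 and 4.82 ± 1.0 (log2 ± SE, 2 libraries against 2), followed by Fosb (4.58 ± 1.34) and Egr1 (4.04 ± 0.89). Atf3 and Junb differed by 3.05 ± 0.58 and 2.83 ± 0.44, and Ier2 and Jun by 1.30 ± 0.43 and 1.18 ± 0.28. Klf6 (0.48 ± 0.21) and Klf4 (0.41 ± 0.27) were nearest to 0. Without fl/fl-MI 2 the value was 3.59 for Nr4a1, 3.20 for Fos, 3.17 for Egr1, 1.99 for Fosb, 1.97 for Atf3 and 0.06 for Klf4. In edgeR's quasi-likelihood fit with Benjamini-Hochberg adjustment, 6 of the 10 passed an adjusted p under 0.05, all higher (Fos, Jun, Junb, Egr1, Atf3 and Nr4a1), against 18.5% of all genes in either direction and 10.1% higher. Nothing is read from that count, since the genes were chosen on these values.

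The 2nd comparison was MI against sham in mice labelled CKO. The 10 genes had no common direction. The median log2 fold change was 0.30, beside 0.01 for all genes tested, with 5 positive and 5 negative. Fos (1.17 ± 0.87), Egr1 (0.99 ± 0.80), Junb (0.86 ± 0.42), Atf3 (0.69 ± 0.54) and Nr4a1 (0.67 ± 0.84) had positive values, and Fosb (-0.08 ± 1.17), Jun (-0.09 ± 0.27), Ier2 (-0.44 ± 0.43), Klf6 (-0.61 ± 0.21) and Klf4 (-0.70 ± 0.28) negative ones. Without CKO-MI 2 the median was 0.93, and without CKO-MI 1 it was -0.95, so the sign rested on 1 library, as did that of Fos, Egr1 and Nr4a1. The signs of Fosb (0.77), Jun (0.13) and Ier2 (0.08) turned without CKO-MI 2, and those of Fosb (0.46) and Jun (0.09) also without CKO-Sham 2. Both CKO-MI libraries were above both CKO-Sham libraries for Junb and Atf3 (36.4% of all genes tested) and below them for Klf4 and Klf6 (35.8%). On the FPKM scale the Klf4 and Klf6 libraries of these groups overlapped, at 31.7 and 23.2 FPKM against 29.0 and 32.3 for Klf4, and at 28.1 and 22.4 against 27.2 and 25.5 for Klf6. None of the 10 passed an adjusted p under 0.05 in edgeR, where 24.7% of all genes did. DESeq2 called 1 of the 10 and 4726 of all genes tested.

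FPKM and CPM differ between MI and sham hearts in a way that bears on both comparisons. The share of counts on mitochondrial genes was 43.1% to 46.4% in sham and 19.9% to 24.2% in MI libraries. The FPKM values are scaled to the whole library, and on log2(FPKM + 1) the median of all genes tested was 0.42 in fl/fl and 0.39 in CKO, against 0.05 and 0.01 with TMM. The sign of Fosb and Jun in CKO mice turned on that scale.

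**Figure D3:**
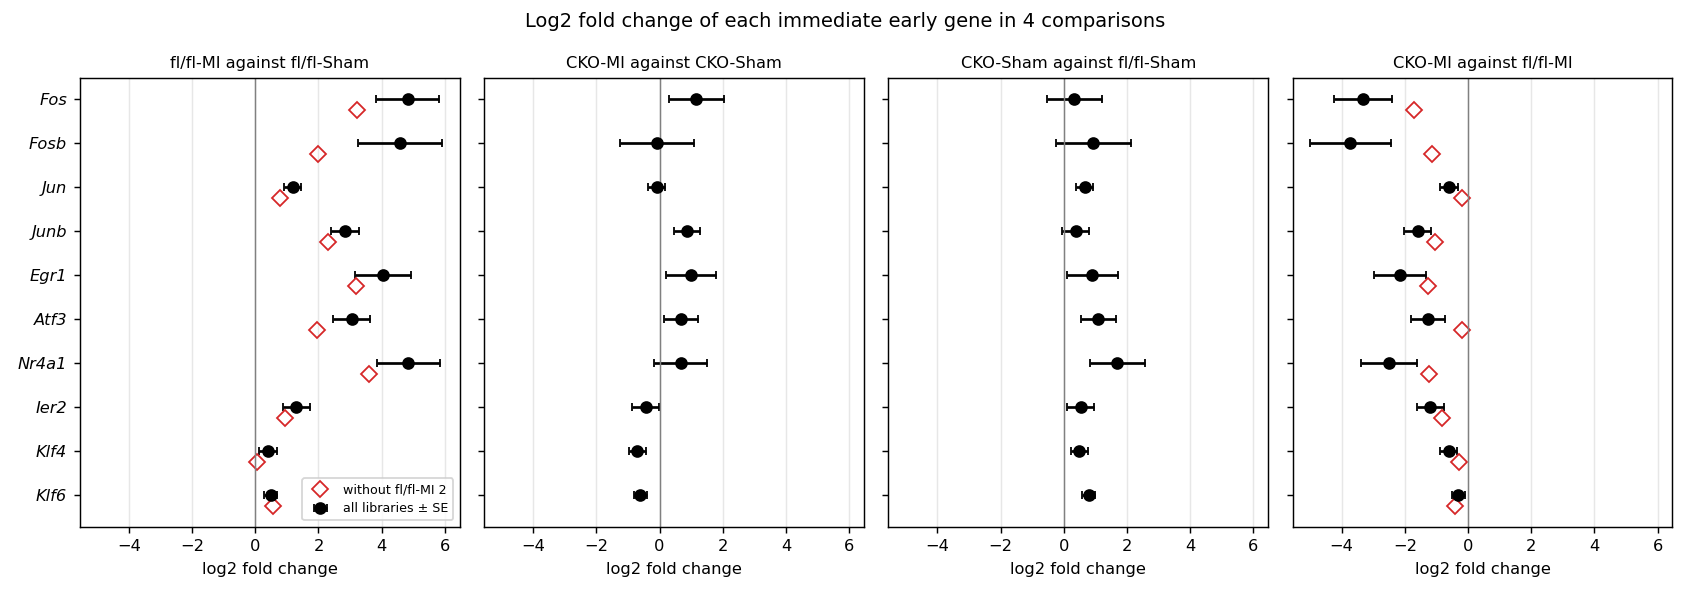
Points are edgeR log2 fold changes (x axis) of the 10 genes (y axis) in 4 comparisons, with bars of ± 1 SE, and open diamonds are the values without the library labelled fl/fl-MI 2. All 10 lie above 0 in the 1st and 3rd panels and below 0 in the 4th, while the 2nd has 5 on each side, and leaving out fl/fl-MI 2 moves Fosb in the 1st panel from 4.58 to 1.99.

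The comparison of CKO-Sham with fl/fl-Sham asked whether the groups differed without infarction. The early genes were somewhat higher in CKO-Sham. In 9 of the 10, all but Fos, both CKO-Sham libraries were above both fl/fl-Sham libraries, which was so for 23.2% of all genes tested. The median log2 fold change was 0.72, beside 0.00 for all genes. Nr4a1 had the largest value, 1.69 ± 0.87, followed by Atf3 (1.09 ± 0.55), Fosb (0.93 ± 1.19), Egr1 (0.91 ± 0.80), Klf6 (0.79 ± 0.21), Jun (0.66 ± 0.27), Ier2 (0.54 ± 0.43) and Klf4 (0.50 ± 0.27). Junb (0.37 ± 0.42) and Fos (0.33 ± 0.86) had the smallest, and the sign of Fos turned without CKO-Sham 2. No member passed an adjusted p under 0.05 in edgeR, DESeq2 or limma. Over all genes a single gene (0.00713%) passed in edgeR, 34 in DESeq2 and 2 in limma. Neither CKO-Sham library had Esr1 above the fl/fl-Sham level, so that gene did not set the 2 sham groups apart. The 5 erythroid markers (4 globin genes and Alas2) summed to 555 and 218 FPKM in fl/fl-Sham and to 84.5 and 111 in CKO-Sham. Their median log2 fold change was -2.05, further from 0 than that of the early genes, and none passed an adjusted p under 0.05 in edgeR, while all 5 had an unadjusted p under 0.05. Their part in the levels of the early genes was not tested.

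CKO-MI against fl/fl-MI sets the genotypes, as labelled, side by side after infarction, with overlapping Piezo1 levels in the 2 groups. All 10 genes had a lower mean in the libraries labelled CKO-MI. The median log2 fold change was -1.43, beside -0.01 for all genes, and -0.94 without fl/fl-MI 2. Fosb and Fos differed most, by -3.72 ± 1.28 and -3.32 ± 0.93, then Nr4a1 (-2.48 ± 0.89), Egr1 (-2.14 ± 0.82) and Junb (-1.59 ± 0.42). Atf3 (-1.27 ± 0.54), Ier2 (-1.20 ± 0.43), Klf4 (-0.61 ± 0.27), Jun (-0.60 ± 0.27) and Klf6 (-0.31 ± 0.21) differed less. Without fl/fl-MI 2 the values were -1.70 for Fos, -1.27 for Egr1, -1.24 for Nr4a1, -1.13 for Fosb, -1.06 for Junb and -0.19 for Atf3. In 6 genes (Fos, Fosb, Junb, Egr1, Nr4a1 and Ier2) both CKO-MI libraries were below both fl/fl-MI libraries, a pattern of 15.5% of all genes. In edgeR these 6 were lower by at least 2-fold at an unadjusted p under 0.05, against 2.72% of all genes. Fewer members were so without fl/fl-MI 2. After Benjamini-Hochberg adjustment no member passed in edgeR, as for 0.0% of all genes. DESeq2 called 1 of the 10 and 207 of all genes tested. The set may have been chosen on this contrast, so these counts are a description. The comparison shares its libraries with those against sham.

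The difference of the MI effects, which is the log2 fold change of MI against sham in CKO minus that in fl/fl, was negative for all 10 genes. It ran from -4.65 ± 1.73 for Fosb and -4.17 ± 1.24 for Nr4a1 to -1.11 ± 0.39 for Klf4 and -1.09 ± 0.29 for Klf6. Without fl/fl-MI 2 it was -2.92 for Nr4a1, -2.18 for Egr1, -2.07 for Fosb, -2.04 for Fos and -1.28 for Atf3. Its median was -2.16, beside -0.02 for all genes, and -1.40 without fl/fl-MI 2. All 10 were lower by at least 2-fold at an unadjusted p under 0.05 in edgeR, against 2.93% of all genes. Fewer members were so without fl/fl-MI 2. No gene tested passed an adjusted p under 0.05 in edgeR (0.0%), and DESeq2 called none of the 10 and 131 of all genes tested. This quantity shares its libraries with each of the 4 comparisons above and adds no independent data.

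The replicates of each MI group lay far apart. The order fl/fl-MI 2, fl/fl-MI 1, CKO-MI 1, CKO-MI 2 from high to low was taken by 6 of the 10 genes (Fos, Fosb, Junb, Egr1, Nr4a1 and Ier2) and by 4.57% of all genes tested. Library fl/fl-MI 2 was the highest of the 8 for 9 genes (19.9% of all genes), and CKO-MI 2 was the lowest MI library for all 10 (20.0%). Between replicates, fl/fl-MI 2 was more than 2-fold above fl/fl-MI 1 for Fos, Fosb, Egr1, Atf3 and Nr4a1 (8.28% of all genes), with ratios from 2.66 for Egr1 to 11 for Fosb. CKO-MI 1 was more than 2-fold above CKO-MI 2 for Fos, Fosb, Junb, Egr1, Nr4a1 and Ier2 (2.74% of all genes), with ratios from 2.23 for Junb to 8.39 for Fosb. Sham replicates differed by 1.0 to 1.23 times in fl/fl-Sham and by 1.04 to 1.91 times in CKO-Sham.

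Other measures moved with this order in part. Their sums are on the FPKM scale, on which the median of all genes was higher in MI hearts, as given above. The summed FPKM of 5 atrial markers (Nppa, Myl4, Myl7, Sln and Bmp10) was 109 to 498 in sham libraries, 6522 and 18720 in fl/fl-MI, and 5567 and 3704 in CKO-MI. Of the 5, Nppa alone rose in MI hearts of each genotype. It made up 6505 of the 6522 FPKM in fl/fl-MI 1, 5551 of 5567 in CKO-MI 1 and 3688 of 3704 in CKO-MI 2. The sum of 8 macrophage markers was 201 to 240 in sham, 891 and 543 in fl/fl-MI, and 290 and 539 in CKO-MI. With MI, 4 of the 8 were called higher in fl/fl hearts (50.0%) and 1 in CKO hearts (12.5%). Over all genes 18.5% and 24.7% were called in either direction in these comparisons. The sum of 6 heat shock genes was 102 to 122 in sham, 432 and 346 in fl/fl-MI, and 540 and 341 in CKO-MI. That of 9 clock output genes was 78.5 to 111 in sham, 153 and 133 in fl/fl-MI, and 105 and 71.5 in CKO-MI. With TMM, the median log2 fold change of MI against sham for these 9 was 0.04 in fl/fl and -0.68 in CKO mice. The clock sum hides opposite differences between CKO-MI 1 and CKO-MI 2. Arntl (5.74 and 26.6 CPM) and Npas2 (2.07 and 9.43) were higher in CKO-MI 2, and Nr1d1 was much alike (58.2 and 61.3). The others were lower there, such as Per2 (44.5 and 9.86) and Dbp (49.0 and 17.8). What this means for the early genes was not tested. For 8 endothelial markers the sum was 233 to 282 in sham and 132 to 170 in MI hearts. Of these, 5 were called lower in fl/fl (62.5%) and 7 in CKO mice (87.5%). For 8 fibroblast markers the sum was 173 to 191 in sham, 1147 and 370 in fl/fl-MI, and 505 and 903 in CKO-MI. With TMM, the median log2 fold changes with MI in fl/fl and CKO mice were 1.04 and 0.35 for macrophage markers and 1.44 and 1.71 for heat shock genes. For endothelial markers they were -1.27 and -1.23, and for fibroblast markers 1.57 and 1.22. None of the atrial, macrophage, endothelial or fibroblast markers was called between genotypes in edgeR, and none was at 0 in any library. Their part in the levels of the early genes was not tested.

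Over the 8 libraries, Pearson's r of log2 CPM between 2 members ranged from 0.23 (Fos and Klf6) to 0.99 (Egr1 and Nr4a1), with a median of 0.86 over 45 pairs. With group means subtracted the median was 0.91, and the range was 0.20 to 0.996. These values describe 8 libraries that share the depth and tissue differences above. Of the 14018 other genes tested, those nearest to the mean pattern of the 10 were Rasd1 (r 0.99), Zfp36 (0.98), Adamts1 (0.98), Ciart (0.98), Sik1 (0.97), Dusp1 (0.97), Slc25a25 (0.96), Btg2 (0.96), Stx12 (0.96) and Osm (0.96). Osm was low in all libraries, at 0.136 to 4.16 CPM. Zfp36, Sik1, Dusp1 and Btg2 stand on the lists of other early genes. Those lists held 66 of the 14018 genes and gave 13 of the 100 nearest. Zfp36, which binds and destabilizes AU-rich mRNA, was at 35.9 and 32.6 CPM in fl/fl-Sham, 53.9 and 58.8 in CKO-Sham, 95.5 and 354 in fl/fl-MI, and 96.4 and 27.3 in CKO-MI. Sik1, a kinase induced by cAMP, was at 24.4 and 29.0, 45.2 and 53.0, 79.4 and 361, and 100.5 and 29.1 CPM in the same order of groups. After group means were subtracted, the nearest genes were others: Flt1, Nubpl, Bag3, Ghitm, Rapgef5, Ptgr2, D5Ertd579e, Ostm1, Gm10359 and Acad8, with r from 0.992 to 0.9995. That measure rests on 1 difference between 2 libraries in each of 4 groups, and 3 of its 100 nearest genes were on the early gene lists.

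A wider look was taken at 71 other early genes in 5 lists, of which 66 passed the filter (Fosl1, Batf3, Egr4, Dusp2 and Npas4 did not). These lists too were written with earlier results of these data known, so the shares of calls among them are a description. In fl/fl-MI against fl/fl-Sham, 33 rose and 1 fell at an adjusted p under 0.05 in edgeR, or 51.5% of those tested against 18.5% of all genes. By list, 5 of 7 AP-1, ATF and MAF factors, 4 of 8 EGR, NR4A and KLF factors, 5 of 11 other transcription factors, 10 of 21 feedback genes and 9 of 19 others rose. Their median log2 fold change was 1.37. Without fl/fl-MI 2, 33 rose and 2 fell. The calls depended on the sham libraries, since 1 was left without fl/fl-Sham 1 and none without fl/fl-Sham 2, and on pooling the spread over the 4 groups, since a fit of the 4 libraries compared called 7.

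Among those with the smallest p were matricellular proteins. Ccn2, a matricellular protein also called CTGF, rose from 46.1 and 43.4 to 1076 and 853 CPM (log2 4.43 ± 0.41, edgeR with Benjamini-Hochberg adjusted p = 0.00352). Thbs1, the matricellular protein thrombospondin, rose by 3.55 ± 0.44 (edgeR adjusted p = 0.00562). For both genes fl/fl-MI 1 was above fl/fl-MI 2, the opposite of Fos. Of the transcription factors, Egr2 rose by 3.90 ± 0.51, Bhlhe40 by 2.19 ± 0.30 and Jund by 1.34 ± 0.18. Gadd45b, a stress-induced gene linked to MAP kinases, rose by 1.66 ± 0.19 and Ier3 by 1.14 ± 0.13, and the edgeR adjusted p of these 5 ranged from 0.0048 to 0.00704. Irf1, an interferon-induced factor, fell by 1.20 on the log2 scale (SE 0.24, edgeR adjusted p = 0.0192).

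In CKO-MI against CKO-Sham, 16 of the 66 rose and 3 fell (28.8% against 24.7% of all genes), with a median of 0.41. Ccn2 rose by 2.70 ± 0.38, Egr2 by 2.56 ± 0.48, Thbs1 by 1.88 ± 0.41, Phlda1 by 1.75 ± 0.27, Dusp8 by 1.31 ± 0.29, Gadd45b by 1.12 ± 0.18 and Ier3 by 0.9998 ± 0.13, with edgeR adjusted p (Benjamini-Hochberg) from 0.00514 to 0.02. Klf2, a flow-sensitive factor of endothelium, fell by 1.94, Id1 by 1.53 and Irf1 by 1.27. Ccn2, Egr2, Thbs1, Gadd45b and Ier3 were thus among the named genes of both comparisons. The 2 comparisons have no library in common but share 1 fit and its estimate of the spread. The call count was 10 without CKO-MI 1, 4 without CKO-Sham 2 and 0 without CKO-Sham 1.

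Between genotypes none of the 66 passed an adjusted p under 0.05 in edgeR. The counts below at an unadjusted p come without a share of all genes, so nothing is read from them. Of all genes tested, DESeq2 called 34, 207 and 131 in these comparisons, in the order below. In CKO-Sham against fl/fl-Sham 51 of the 66 had a positive value (median 0.30), 4 had an unadjusted p under 0.05 and DESeq2 called 0. Klf2 (0.90 ± 0.25), Plk3 (1.16 ± 0.39) and Dusp6 (0.64 ± 0.24) had the smallest p among positive values, and Nfil3 (-0.95 ± 0.48), Cebpb (-1.07 ± 0.58) and Klf10 (-0.26 ± 0.18) among negative ones. In CKO-MI against fl/fl-MI 59 were negative (median -0.68, and -0.34 without fl/fl-MI 2), 27 had an unadjusted p under 0.05 and DESeq2 called 3. Klf2 (-1.32 ± 0.26), Cebpb (-2.84 ± 0.60) and Gadd45b (-0.69 ± 0.18) had the smallest p on that side, and Phlda1 (0.77 ± 0.27), Dusp8 (0.52 ± 0.28) and Hbegf (0.56 ± 0.63) on the other. Their edgeR adjusted p ranged from 0.454 to 0.851, and Hbegf was at -0.07 without fl/fl-MI 2. For the difference of the MI effects 60 were negative (median -0.99), none was called in edgeR, 25 had an unadjusted p under 0.05 and DESeq2 called 3. Klf2 (-2.22 ± 0.36), Plk3 (-2.21 ± 0.55) and Cebpd (-1.32 ± 0.34) had the smallest p among negative values, and Phlda1 (0.63 ± 0.38), Ier5l (0.44 ± 0.76) and Nfil3 (0.27 ± 0.67) among positive ones, with edgeR adjusted p from 0.56 to 0.944. Without fl/fl-MI 2, Ier5l was at -0.16 and Nfil3 at 1.22.

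**Figure D4:**
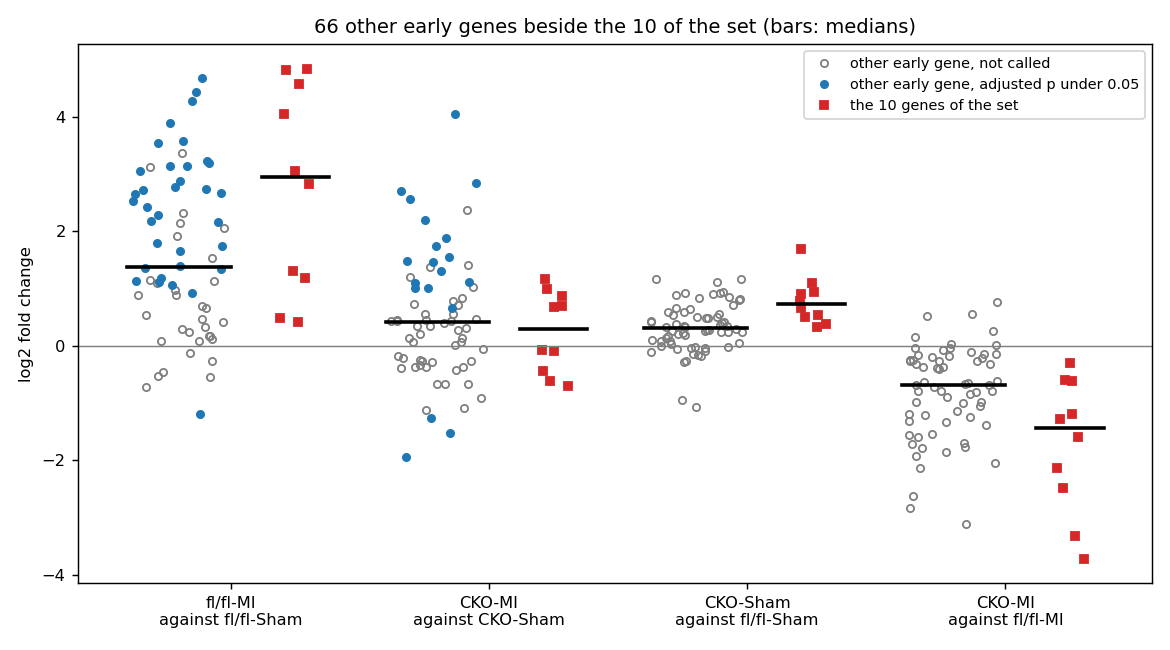
Log2 fold changes (y axis) of the 66 other early genes (circles, filled where the edgeR adjusted p was under 0.05) and of the 10 genes of the set (squares) in 4 comparisons (x axis), with bars at the medians. The medians of circles and squares are 1.37 and 2.94, 0.41 and 0.30, 0.30 and 0.72, and -0.68 and -1.43 from left to right, and filled circles appear in the 2 comparisons of MI with sham.

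Transcripts of the machinery that acts on early gene promoters were followed from the same fit. Of 12 upstream transcription factors, Stat3 (0.9997 ± 0.17) and Atf1 (0.85 ± 0.15) rose and Elk3, a partner of SRF that can act as a repressor, fell by 1.06 in fl/fl-MI against fl/fl-Sham. In CKO-MI against CKO-Sham, Atf1 (1.22 ± 0.15), Stat3 (1.21 ± 0.17) and Elk1 (0.94 ± 0.25) rose and Elk3 (-0.74 ± 0.16) and Elk4 (-0.48 ± 0.14) fell, the last with its sign turned on log2(FPKM + 1). Of 11 upstream kinases tested, Map2k1 (0.93 ± 0.15 and 0.82 ± 0.15) rose and Mapk3 (-0.53 ± 0.12 and -0.83 ± 0.12) fell in fl/fl and CKO mice, and the fall in fl/fl mice turned on log2(FPKM + 1). The edgeR adjusted p of these calls ranged from 0.0049 to 0.0459. None of the upstream factors or kinases was called between genotypes. Of 6 heat shock genes, Hspb1 (1.30 ± 0.27) and Hsp90aa1 (1.56 ± 0.34) rose in fl/fl mice, and Hsph1 (2.09 ± 0.44), Hsp90aa1 (2.003 ± 0.34) and Hspb1 (1.21 ± 0.27) in CKO mice. Of 9 clock output genes, Ciart rose by 2.73 ± 0.77 in fl/fl mice and Nr1d1 fell by 0.68 in CKO mice. The edgeR adjusted p of these heat shock and clock calls was 0.0101 to 0.0494. They made up 33.3% of the heat shock and 11.1% of the clock genes in fl/fl mice, and 50.0% and 11.1% in CKO mice. The call of Ciart ended without fl/fl-MI 2 (1.41, edgeR adjusted p = 0.115).

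The transcript table separated forms of Fosb and Nr4a1, as the authors' software assigned shared reads to them, so small shares are uncertain. Jun, Junb, Egr1 and Ier2 each had 1 transcript. In Fosb, removal of a 140-base intron at chr7:19305007-19305146 gives the shortened ΔFosB protein, which lacks the C-terminal end and is more stable. The 2 transcripts with that intron removed took 0% and 1.02% of Fosb counts in fl/fl-Sham, 1.11% and 10.5% in CKO-Sham, 8.35% and 10.1% in fl/fl-MI, and 4.69% and 0% in CKO-MI. The libraries with the lowest Fosb level had the lowest shares. These shares rest on 0, 3 and 5 counts in fl/fl-Sham 1, fl/fl-Sham 2 and CKO-Sham 1, so no relation to the level is read from them. In CKO-MI 2 all 175 Fosb counts fell on other forms. Only reads over that intron or its junction tell the forms apart, so the 0 there sets no tight limit on the share. A transcript of 1 exon, annotated as a retained intron form that keeps intron sequence, took 11.1% to 32.6% of Fosb counts, highest in CKO-MI 2.

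Nr4a1 had a 2nd start. The main transcript starts at chr15:101266846, next to the promoter printed above, and took 75.3% and 97.2% of Nr4a1 counts in fl/fl-MI and 58.1% to 93.8% in the other libraries. A transcript from chr15:101254269, 12577 bases upstream, was at 0.408 and 0.0788 CPM in fl/fl-Sham, 0.421 and 0.229 in CKO-Sham, 23.0 and 2.45 in fl/fl-MI, and 17.0 and 6.83 in CKO-MI. All 4 MI libraries were above all 4 sham libraries in this form. Its share of Nr4a1 counts was 0.501% to 3.12% in sham, 14.9% and 0.424% in fl/fl-MI, and 15.1% and 38.1% in CKO-MI. The library with the highest Nr4a1 level, fl/fl-MI 2, thus had the lowest share of the upstream form, and CKO-MI 2, with the lowest level of the MI libraries, had the highest. The main form in CKO-MI 2, at 10.4 CPM, was below its 11.5 and 11.7 CPM in fl/fl-Sham. These values were not tested.

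**Figure D5:**
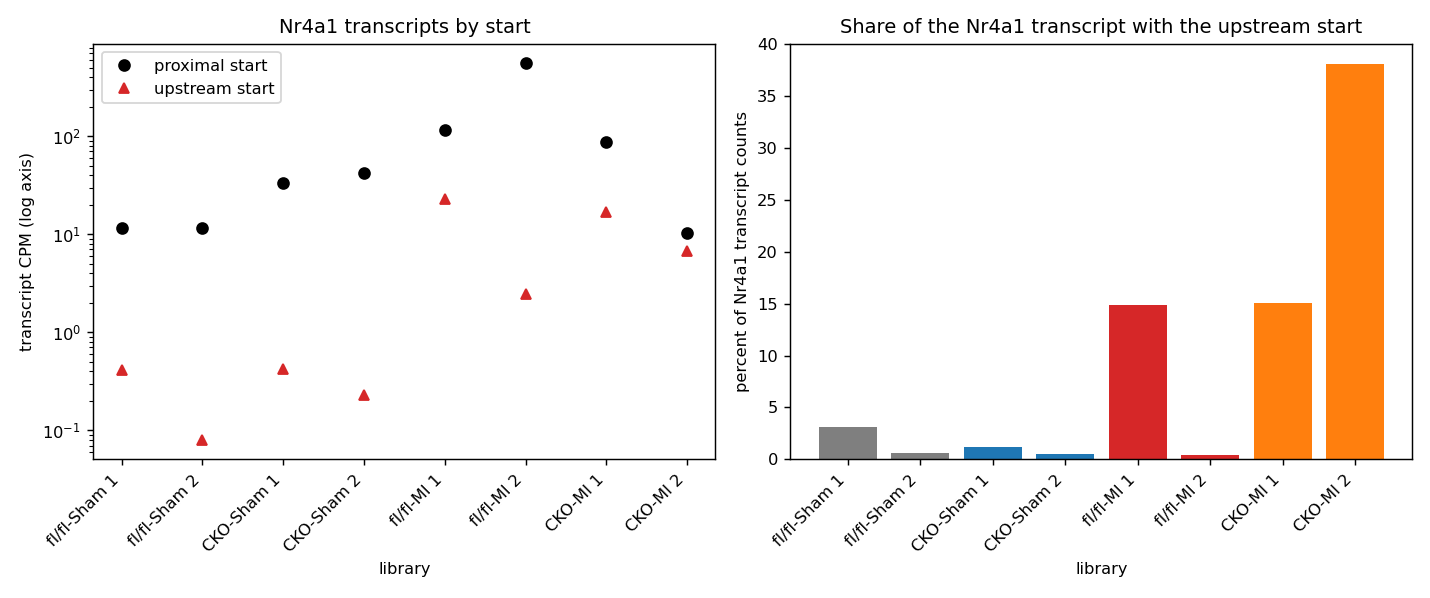
Left, CPM of the Nr4a1 transcripts with the proximal (circles) and the upstream start (triangles) on a log y axis for each library on the x axis; right, bars of the share of Nr4a1 transcript counts assigned to the upstream form. The upstream form stands at 2.45 to 23.0 CPM in the MI libraries and at 0.0788 to 0.421 in sham, and its share runs from 0.424% in fl/fl-MI 2 to 38.1% in CKO-MI 2.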

How the data were processed

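Poly(A) RNA from myocardium was sequenced as paired-end reads, and the submitters' processing notes name cutadapt 1.9 and FastQC. The aligner, the counting tool and its use of strand, and the annotation are not given in the sources used here. The gene coordinates equalled those of GENCODE M21 on GRCm38 for 90.8% of genes. The deposited whole-number counts per gene and per transcript were used as the authors made them, and they hold about 4 counts per read pair (18455437 to 22029393 pairs per library). The authors' FPKM values were deposited beside the counts and served for the filter (mean of at least 0.5), for levels between genes and for marker sums. No per-sample column was left unused (0).

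A model of the 8 libraries, with 4 group means, was fitted in edgeR 4.0.16 (R 4.3.3), with TMM normalization, the quasi-likelihood test and Benjamini-Hochberg adjustment over the 14028 genes tested. CPM was taken on the same scaling, and correlations used log2(CPM + 0.5). Each SE was derived from the quasi-likelihood test, as the absolute log2 fold change divided by the square root of its F statistic. It thus rests on the spread estimated over all 4 groups. Alternatives were DESeq2 1.42.0, limma 3.58.1 on log2(FPKM + 1), RLE scaling, no filter, a filter at 5 FPKM, counts divided by 4, the compared libraries alone, a replicate block and each library left out. The reading of all results without fl/fl-MI 2 as a check of its label was added after the data were seen. Tables and plots were made in Python 3.11.15 with pandas 2.3.3, NumPy 2.4.6 and matplotlib 3.10.9.

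The 10 genes and all lists of genes and markers were chosen with earlier results of these data known. All 10 were named, and of the other early genes up to 8 per direction with the smallest p among those called, or up to 3 where none was called. Up to 3 were named from each upstream, heat shock and clock list, and the 10 genes nearest in pattern. Values of 2 genes that this rule takes are not reported here, and the counts include them. The labels do not tie the 2 libraries of a group to separate animals, so p-values measure only the spread between these libraries.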

Additional observations from a re-analysis of the deposited data

Results flagged for a closer look

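For some genes the libraries of both replicates pointed in opposite directions in 2 settings. In 5 of the 10 early genes, both CKO-Sham libraries were above both fl/fl-Sham libraries while both CKO-MI libraries were below both fl/fl-MI libraries. The difference of the MI effects (log2, CKO minus fl/fl) was -4.65 for Fosb, -4.17 for Nr4a1, -3.05 for Egr1, -1.96 for Junb and -1.74 for Ier2. Without fl/fl-MI 2 it was -2.07 for Fosb, -2.92 for Nr4a1, -2.18 for Egr1, -1.43 for Junb and -1.37 for Ier2. Klf4 (-1.11) and Klf6 (-1.09) stood apart in another way, with both MI libraries above both sham libraries in fl/fl mice and below them in CKO mice, an order found in 271 of the 14028 genes tested (1.93%). On the FPKM scale the CKO libraries of both genes overlapped. These patterns are an order of libraries, and no test of the difference is read for these 7 genes, since they were chosen on these values.

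Of the other early genes named, 7 had the first pattern. Their difference was -2.22 for Klf2, -2.21 for Plk3, -1.73 for Ccn2, -1.67 for Thbs1, -1.34 for Egr2, -1.32 for Cebpd and -1.09 for Bhlhe40. Dusp6 (-0.69) had the pattern of Klf4. None of these 8 passed an adjusted p under 0.05 in edgeR. The first pattern was found in 727 of the 14028 genes tested (5.18%) and in 19 of the 66 other early genes. It rests on libraries whose Esr1 level went against the label.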

How the results depend on the processing

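The median log2 fold change of the 10 genes kept its sign under every alternative but 1. For fl/fl-MI against fl/fl-Sham it was 1.98 to 3.41 when 1 library was left out (lowest without fl/fl-MI 2) and 2.86 to 2.97 otherwise. For CKO-MI against CKO-Sham it was -0.95 (without CKO-MI 1) to 0.93. It was 0.55 to 0.79 for CKO-Sham against fl/fl-Sham, -2.14 to -0.94 for CKO-MI against fl/fl-MI and -2.78 to -1.40 for the difference of the MI effects.

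Counts of calls depended on the spread assumed and on single libraries. Of the 66 other early genes, 34 were called in fl/fl-MI against fl/fl-Sham, but 54 with limma on log2(FPKM + 1), 7 from the libraries compared alone, and 0 (without fl/fl-Sham 2) to 44 with 1 library left out. In CKO-MI against CKO-Sham 19 were called, and 0 (without CKO-Sham 1) to 14 with 1 left out. In CKO-Sham against fl/fl-Sham 0 were called, and 9 from the libraries compared alone. Between the MI groups and for the difference of the MI effects 0 were called, but 3 each with DESeq2, and 0 to 22 and 0 to 16 with 1 left out, both highest without fl/fl-MI 1. Over all genes the counts were 2596, 3467, 1, 0 and 0 in the same order. With 1 library left out they were 119 to 4180, 25 to 1416, 0 to 2, 0 to 1674 and 0 to 751. Under the other alternatives they reached from 199 to 5255, 2105 to 5164, 0 to 165, 0 to 207 and 0 to 131. When 1 library stood for a group, it was assumed to vary like the others. Mapk3 in fl/fl (0.0309) and Elk4 in CKO mice (0.0701) changed sign with limma on log2(FPKM + 1), where the share of calls that were higher was 91.4% against 54.3% (fl/fl) and 89.7% against 51.9% (CKO). Without a filter these shares were 61.3% and 61.4%, and with the fl/fl libraries alone 34.2%. Each named gene that was called had an adjusted p above 0.05 under at least 1 alternative, and the causes were not tested.

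Replicate numbers do not pair the samples: deviations of same-numbered libraries had r of -0.21 to 0.0553 between groups. With a replicate block 24, 14, 0, 0 and 0 of the other early genes were called, and 1689, 2677, 0, 0 and 0 of all genes. Depth limits little here apart from transcript forms, which rest on as few as 3 counts.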
